A study of Mus musculus with 28 samples.

Results

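The promoters of the proteasome genes were examined in mouse embryonic stem cells for the acetylation of histone H3 at lysine 27 (H3K27ac) and of histone H2B at lysine 120 (H2BK120ac). Members were the protein-coding genes whose symbols consist of Psm, a letter from a to g and a number. This gave 48 of 21153 protein-coding genes with a transcription start site (TSS). Coverage was read in the regions whose centre lay within 1 kb of a TSS of the gene. Such a region was present at 46 of the 48 genes, against 14221 genes in all, and the 46 genes had 54 of the 127646 regions in the tables. Psmb10 and Psmb11 had none.

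The cells were mESCs with the genotype FOXD3-iKO, an inducible knockout of the forkhead transcription factor FOXD3, and every group carried it. All were grown in L2i medium with a treatment time of 24 h. The mark profiles came from CUT&Tag, in which an antibody brings a transposase to the chromatin that holds a modification. For H3K27ac, 2 samples of asynchronous cells received the solvent ethanol (EtOH) and 2 received 4-hydroxytamoxifen (4HT), which induces the depletion. For H2BK120ac there were 3 samples in each of the groups ED, ET, TD and TT, whose codes are not explained in the labels. Of 28 samples in the series, 12 came from cells sorted by phase and were not used here. The labels do not say whether samples came from separate cultures or from more than 1 clone. The authors had merged the replicates into 1 column per group. There is therefore no replicate spread, no test between groups was possible, and every difference below is one between merged columns.

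The proteasome is the protease that degrades proteins tagged with ubiquitin. Its barrel-shaped core, the 20S particle, is built from rings of alpha subunits, which gate the entrance, and rings of beta subunits, some of which carry the proteolytic sites. The 19S regulatory particle caps the core: its ATPase ring unfolds substrates, and its other subunits bind and remove ubiquitin. Separate genes encode activators that can replace the cap, an inhibitor and chaperones that assemble the particles. The constitutive subunits are expressed in all cells, while immunoproteasome subunits are known for cytokine-induced expression and a further alpha subunit for the testis. H3K27ac and H2BK120ac both mark active promoters.

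Promoter sequences are shown for 6 members, to set promoters with high and low H2BK120ac side by side where H3K27ac was present. All lay above the members' median H3K27ac in EtOH (0.743 CPM, coverage scaled to library depth). Psme4, Psmd1 and Psma2 had the highest H2BK120ac over TD and TT among these, and Psme3, Psma1 and Psmb5 the lowest, leaving out genes without an entry in the promoter table used. The choice was made from these values, so that the contrast between both sets is a description. Each line gives the 250 bases before the TSS, 5′ to 3′ on the strand of the gene, from RefSeq (GRCm38.p6). Capitals mark matches on either strand. The motifs were CCAAT, the box bound by the NF-Y factors, GGGCGG, the GC box bound by SP factors, CCGGAAG, the core bound by ETS factors, and CACGTG, the E-box of basic helix-loop-helix factors. Further motifs were TATAAA, the TATA box, and the palindrome of the respiratory factor NRF1. At Psme4 a GC box overlaps the ETS core.

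Psme4: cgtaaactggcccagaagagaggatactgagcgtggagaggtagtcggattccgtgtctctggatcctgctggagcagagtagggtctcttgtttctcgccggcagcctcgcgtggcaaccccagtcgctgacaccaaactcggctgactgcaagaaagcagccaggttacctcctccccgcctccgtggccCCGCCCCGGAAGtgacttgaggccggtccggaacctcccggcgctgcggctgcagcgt
Psmd1: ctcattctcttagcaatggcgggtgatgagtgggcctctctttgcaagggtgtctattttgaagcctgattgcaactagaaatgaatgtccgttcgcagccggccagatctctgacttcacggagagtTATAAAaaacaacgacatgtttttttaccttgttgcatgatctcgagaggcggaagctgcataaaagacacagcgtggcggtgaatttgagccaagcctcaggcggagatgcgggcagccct
Psma2: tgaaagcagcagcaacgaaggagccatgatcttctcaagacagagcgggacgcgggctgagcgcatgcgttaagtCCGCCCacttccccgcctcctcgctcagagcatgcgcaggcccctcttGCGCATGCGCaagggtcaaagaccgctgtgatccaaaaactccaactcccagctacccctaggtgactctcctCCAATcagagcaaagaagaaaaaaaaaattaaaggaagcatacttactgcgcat
Psme3: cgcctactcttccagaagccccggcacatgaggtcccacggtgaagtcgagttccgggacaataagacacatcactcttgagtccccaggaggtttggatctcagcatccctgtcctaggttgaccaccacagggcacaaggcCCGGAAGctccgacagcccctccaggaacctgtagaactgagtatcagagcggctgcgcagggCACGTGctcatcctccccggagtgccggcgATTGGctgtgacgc
Psma1: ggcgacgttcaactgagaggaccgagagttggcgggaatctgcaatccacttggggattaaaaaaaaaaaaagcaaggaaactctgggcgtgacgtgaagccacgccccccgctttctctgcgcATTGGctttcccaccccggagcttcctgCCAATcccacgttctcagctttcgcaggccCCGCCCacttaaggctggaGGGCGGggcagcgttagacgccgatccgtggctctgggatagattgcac
Psmb5: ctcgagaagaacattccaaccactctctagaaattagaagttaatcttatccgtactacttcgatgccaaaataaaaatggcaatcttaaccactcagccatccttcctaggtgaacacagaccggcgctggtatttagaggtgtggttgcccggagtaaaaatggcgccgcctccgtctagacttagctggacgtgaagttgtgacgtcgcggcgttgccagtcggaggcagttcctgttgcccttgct

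The first 3 windows lie at chr11:30771525-30771774 (plus strand), chr1:86064369-86064618 (plus) and chr13:14612992-14613241 (plus). The other 3 lie at chr11:101315963-101316212 (plus), chr7:114276117-114276366 (minus) and chr14:54617996-54618245 (minus). Psmd1 holds a TATAAA match and none of the other capitalised motifs, and Psmb5 holds no capitalised match. Psma2 holds a CCAAT match, a GC box and the NRF1 palindrome. Psma1 has 2 CCAAT and 2 GC box matches, and Psme3 has 1 match each to the CCAAT box, the ETS core and the E-box. The CCAAT box, the GC box and the ETS core each had matches in both sets of sequences.

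Of the 48 members, 40 had an entry in the RefSeq promoter table. Psma8, Psmb1, Psmb2, Psmb7, Psmc3, Psmd3, Psmd7 and Psmg2 did not. Over the 40 promoters, CCGGAAG was found in 12 (30.0%), against 14.3% of all 11657 promoters searched in the same way. Among its carriers were Psmd11, Psmd12, Psmc1, Psmc2, Psmc6 and Psme4. GGGCGG was found in 22 members (55.0%, against 63.9% of all promoters), CCAAT in 14 (35.0%, against 40.6%) and CACGTG in 4 (10%, against 9.81%). TATAAA was found in 4, Psmb4, Psmb8, Psmd1 and Psmd6 (10%, against 8.02%), and the NRF1 palindrome in Psma2 only (2.5%, against 1.77%). TGACGTCA, the cyclic AMP response element, had no match in the 40, against 3% of all promoters. The YY1 element had none either (0.661% of all promoters), nor had the extended antioxidant element TGACTCAGC (0.420%). The shorter core of that element, TGANNNNGC, which is not capitalised above, was found in 16 members (40.0%, against 41.6%). The median member promoter held 58.0% G and C and 14.5 CpG dinucleotides in the 250 bases, against 61.2% and 17 in all promoters. These counts describe letters in a fixed window and say nothing of binding.

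The 54 member regions were 130 to 1541 bp wide, with a median of 638 bp, and 45 of them contained a TSS of their gene. A single region was assigned to 39 members and more than 1 to 7. Where a gene had several regions, its value is their mean. A region was shared with the promoter of a neighbouring gene at 10 members (21.7%, against 15.8% of all promoters). The pairs were Psma2 with Mrpl32, Psma4 with AY074887, Psma7 with Ss18l1, Psmb9 with Tap1, Psmc2 with Dnajc2, Psmc5 with Ftsj3, Psmd10 with Atg4a, Psmd13 with Sirt3, Psme2 with Rnf31 and Psmg2 with Cep76. At these the coverage cannot be assigned to either gene.

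Depth was low. If the most frequent value of a column is that of 1 fragment, the depth was 6.08 M fragments in EtOH, 4.82 M in 4HT and 2.25 to 2.43 M in the H2BK120ac groups, whose lowest values are 0.25 of that unit. Values are coverage in CPM. Bases without coverage appear to have been left out of the deposited means, which would raise sparse regions. A region without a value is given as 0. A 0 means that no coverage was seen at this depth. A value divided by that unit is called its pile-up. On this reading it is a mean depth over covered bases, so a region can hold more fragments than its pile-up. Some H2BK120ac values of single regions lie below 1 unit, such as that of Psmc1 in ET (pile-up 0.75). This reading does not explain them, so the H2BK120ac unit, depth and pile-ups are uncertain. Intervals below are exact 95% Clopper-Pearson intervals that treat the pile-ups as counts. They stand for counting error only, and only as far as that reading holds. The embryonic stem cell identity was checked on 10 stem cell marker promoters, which all had a region. These were covered in all groups except Esrrb in ET, with sums of 17.8 (EtOH), 25.4 (4HT), 7.05 (ED), 7.51 (ET), 17.2 (TD) and 17.8 (TT). Esrrb was low in H3K27ac too, with 0.110 in EtOH and 0.113 in 4HT, below the value of 1 fragment (0.165 and 0.207). Of 8 fibroblast markers 5 had a promoter region, with sums of 0.222 to 1.30, and of 6 immune markers 2 had one, with sums of 0 to 0.829. The Foxd3 promoter had H3K27ac of 1.02 in EtOH and 2.81 in 4HT, and H2BK120ac of 0, 0.223, 0.474 and 0.278 in ED, ET, TD and TT. Acetylation at its promoter does not check the depletion.

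H3K27ac was present at nearly all proteasome promoters and was above that of the typical promoter. The members' median was 0.743 CPM in EtOH and 0.917 in 4HT, against 0.378 and 0.428 over all 14221 promoters. In both groups, 37 of 46 members lay above the middle of all promoters. The median member was at percentile 74.4 in EtOH and 74.6 in 4HT. Psmb8 and Psmd9 had no coverage in EtOH, and no member lacked it in 4HT. A pile-up of at least 5 was reached by 17 members in EtOH and 19 in 4HT (37.0% and 41.3%, against 22.2% and 22.0% of all promoters).

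H2BK120ac was sparser, and the members' position among all promoters differed between the groups. Their median was 0.484 in ED and 0.445 in ET, where the median pile-up was 1.09 and 1, and 0.750 in TD and 0.815 in TT. Over all promoters the medians were 0.445, 0.445, 0.449 and 0.472. The median percentile of the members was 63.6, 49.6, 70.1 and 72.4 in ED, ET, TD and TT. The numbers of members without coverage were 7, 12, 5 and 6 for ED, ET, TD and TT (15.2%, 26.1%, 10.9% and 13.0%, against 19.1%, 19.3%, 18.7% and 17.8% of all promoters). No member reached a pile-up of 5 in ED or ET, whereas 6 did in TD and 4 in TT. Of all promoters, 0.105%, 0.281%, 6.69% and 5.76% reached it in the order ED, ET, TD and TT.

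Of the 20S alpha genes, which encode the outer rings of the core, all 7 lay above the middle of all promoters for H3K27ac in both groups. Psma3 was the highest, with 2.75 in EtOH and 4.54 in 4HT, at its region chr12:70974499-70975245. Its H2BK120ac was 0.852, 1.37, 2.25 and 1.93 in ED, ET, TD and TT, so that both T-first groups exceeded both E-first groups. Psma2, whose region chr13:14612850-14613669 is shared with the mitochondrial ribosomal gene Mrpl32, had 1.03 in EtOH and 2.43 in 4HT. It had the highest H2BK120ac value of any member, 3.35 in TD, and TT had 2.47, while ED had 0.6 and ET 0.752. Psma4 had 0.418, 1.25, 1.54 and 1.03 in ED, ET, TD and TT, so the E-first and T-first groups overlapped. The other alpha genes Psma1, Psma5, Psma6 and Psma7 had H3K27ac of 0.712 to 1.02. Among them Psma5 and Psma7 had no H2BK120ac coverage in ET, but 1.03 and 1.51 in TD and 1.12 and 0.790 in TT. Psma1 did not share this pattern, with 0.676, 0.445, 0.482 and 0.394 in ED, ET, TD and TT. Psma8, the alpha subunit gene known from male germ cells, had H3K27ac of 1.03 in EtOH and 2.31 in 4HT, at percentiles 83.6 and 94.6 of all promoters. H2BK120ac there was 1.31, 0.445, 0 and 0.415 in ED, ET, TD and TT, where all but the ED value have a pile-up of at most 1.

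The 7 constitutive 20S beta genes had a median H3K27ac of 0.735 in EtOH and 1.02 in 4HT. Psmb1, a structural subunit, was the highest in mean, with 1.63 and 1.41 at chr17:15497975-15498606. For H2BK120ac it had 0.407, 0, 1.08 and 1.69 in ED, ET, TD and TT. The genes of the catalytic subunits Psmb5, Psmb6 and Psmb7 differed from each other. Psmb5, the chymotrypsin-like subunit and the target of bortezomib, had H3K27ac of 0.898 in EtOH and 1.64 in 4HT over its 3 regions, but H2BK120ac of only 0.570, 0.0371, 0.412 and 0 in ED, ET, TD and TT. Psmb6, the caspase-like subunit, had H3K27ac of 0.465 and 0.469, and H2BK120ac of 0.659, 0.445, 0.654 and 1.05 in ED, ET, TD and TT. Psmb7, the trypsin-like subunit, had 0.519 and 0.801 for H3K27ac and 0, 0.850, 0.983 and 1.23 for H2BK120ac in ED, ET, TD and TT. Psmb4 had the lowest H3K27ac of the 7, with 0.315 in EtOH and 0.353 in 4HT, below the median promoter, yet 1.27 of H2BK120ac in TD. Its other H2BK120ac values were 0.445 in ED, 0 in ET and 0.542 in TT. The structural subunit genes Psmb2 and Psmb3 had H3K27ac of 0.735 to 1.29.

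The immunoproteasome and thymoproteasome beta genes were the lowest of the core for H3K27ac. Psmb8 had 0 in EtOH and 0.274 in 4HT, and H2BK120ac of 0.579 in ED and 0 in ET, TD and TT. Psmb9, in a region shared with the peptide transporter gene Tap1, had H3K27ac of 0.221 and 0.310. Its H2BK120ac was 0.445, 0.454, 1.30 and 0.835 in ED, ET, TD and TT. Psmb10 and the thymic subunit gene Psmb11 had no region within 1 kb of the TSS.

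The 6 ATPase genes of the 19S base ranged from 0.290 (Psmc4) to 1.21 (Psmc2) in EtOH and from 0.674 (Psmc3) to 1.89 (Psmc5) in 4HT. Psmc2, in part in a region shared with Dnajc2, had 1.79 in 4HT. H2BK120ac there was 0.973, 0.451, 2.49 and 1.06 in ED, ET, TD and TT, so that TD alone stood apart. Psmc5, in a region shared with Ftsj3, had 0.816 in EtOH. For H2BK120ac it had 0.457, 0.707, 1.51 and 1.42 in ED, ET, TD and TT, with both T-first groups above both others. Psmc3 was the weakest for H2BK120ac, with at most 0.466 in any group.

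The 11 non-ATPase genes of the 19S particle held both ends of the range. Psmd1, the gene of the large scaffold subunit, had the highest H3K27ac of all members, 3.56 in EtOH and 6.19 in 4HT, at percentiles 99.5 and 99.8 of all promoters. It has 2 regions, chr1:86064273-86064460 and chr1:86064542-86065013. Its H2BK120ac of 2.14 in ED and 1.55 in ET was the highest of any member in ED and exceeded in ET by Psmg4 alone. In TD and TT it had 3.07 and 2.80. Psmd11, a lid subunit gene known to set proteasome activity in pluripotent cells, had 2.74 in EtOH and 2.90 in 4HT at chr11:80428254-80429292. Its H2BK120ac was 0.568 in ED and 0.625 in ET against 3.05 in TD and 2.55 in TT. Psmd14, the deubiquitinase of the lid, had H3K27ac of 1.13 and 1.26, and Psmd4, a ubiquitin receptor, 0.678 and 1.16. Psmd2, Psmd3, Psmd6, Psmd7, Psmd12 and Psmd13, further base and lid subunits, had H3K27ac of 0.497 to 1.55 and H2BK120ac of 0 to 1.17. Psmd8, another lid subunit gene, had a pile-up of 1 in both H3K27ac columns (0.165 and 0.207) and no H2BK120ac coverage in any group, at its region chr7:29180430-29180880, which contains the TSS.

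The activators, the inhibitor and the assembly chaperones ranged widely. Psme4, the gene of the nuclear activator PA200, which is known to promote the degradation of acetylated histones, had H3K27ac of 1.51 in EtOH and 2.31 in 4HT at chr11:30771441-30772559. H2BK120ac there was 0.458, 1.20, 3.15 and 2.79 in ED, ET, TD and TT. The mean over TD and TT was the highest of all members, 2.97, followed by 2.94 for Psmd1 and 2.91 for Psma2. The activator genes Psme1, Psme2 and Psme3 had H3K27ac of 0.207 to 0.88. Psmf1, the gene of the inhibitor PI31, had 0.245 and 0.242, below the median promoter, and H2BK120ac of 0.445 to 0.649. The 19S chaperone genes Psmd5, Psmd9 and Psmd10 had H3K27ac of 0 to 0.616. Of the 20S chaperone genes, Psmg4 had the highest ET value of any member, 1.72, against 0.755 in ED, 0.728 in TD and 0.766 in TT. Psmg1 and Psmg2, a pair of chaperone genes for the alpha ring, had H3K27ac of 0.556 to 0.717. Psmg3 had a pile-up of 1 in 4 groups and no coverage in ET and TT.

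**Figure D1:**
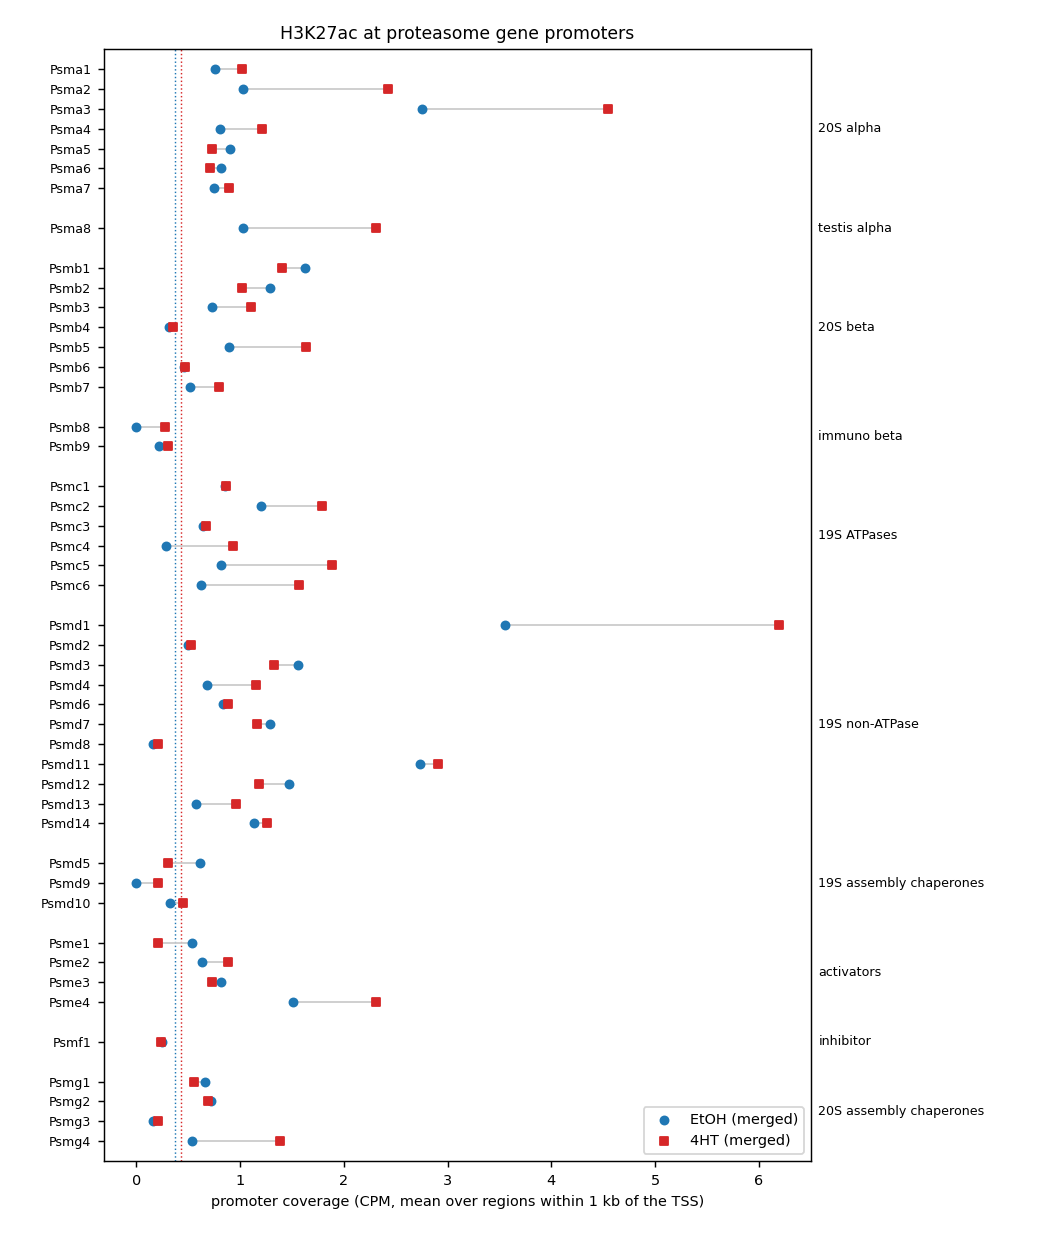
H3K27ac coverage (x axis, CPM) of each member promoter (y axis, grouped by role) in the merged EtOH (circles) and 4HT (squares) columns, with dotted lines at the median of all 14221 promoters. Psmd1 stands far to the right at 3.56 and 6.19, and Psmb8, Psmd8, Psmd9 and Psmg3 sit at the left edge.

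**Figure D2:**
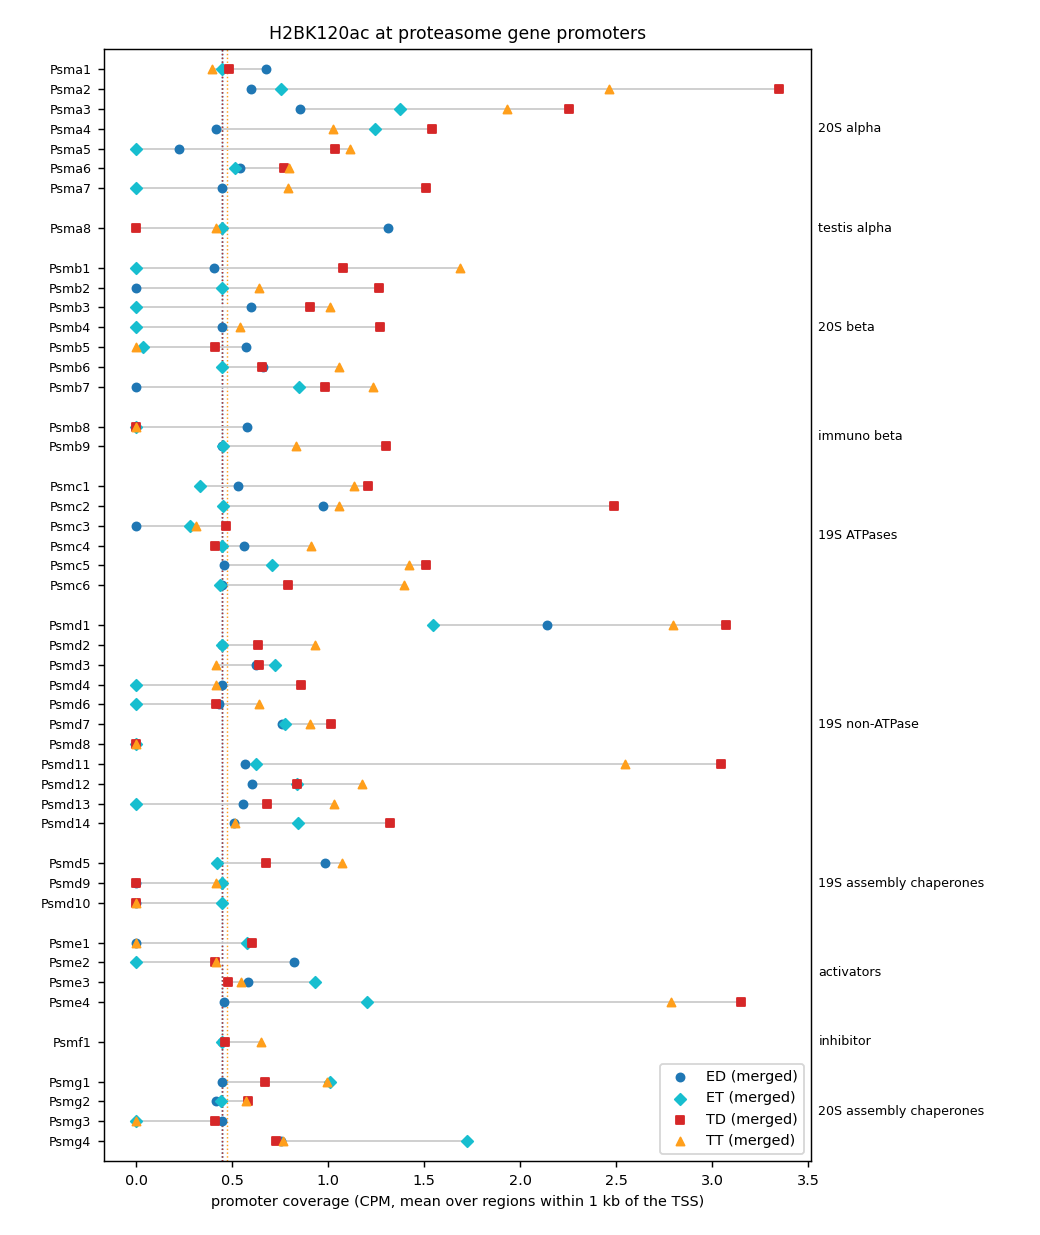
H2BK120ac coverage (x axis, CPM) of each member promoter (y axis, grouped by role) in the merged ED (circles), ET (diamonds), TD (squares) and TT (triangles) columns, with dotted lines at the medians of all promoters and equal values drawn over each other. Psma2, Psmd11 and Psme4 have TD and TT values of 2.47 to 3.35 well apart from ED and ET values of 0.458 to 1.2.

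H3K27ac in 4HT against EtOH asked how FOXD3 depletion relates to the mark. Differences are given as log2 folds of CPM with a pseudocount of 0.2, which understates them at low values, for the 42 members whose mean reached 0.2. The 4 left out were Psmb8, Psmd8, Psmd9 and Psmg3. At least 2-fold higher in 4HT were 6 of 42 members, against 2.91% of all 11117 promoters that passed, and none was 2-fold lower, against 0.81%. With no filter, 8 of 46 members were higher and none lower, against 4.42% and 3.02% of all promoters. The 6 were the ATPase genes Psmc4, Psmc5 and Psmc6, the alpha genes Psma2 and Psma8, and the chaperone gene Psmg4. The median log2 fold of the members was 0.17, against 0.19 over all promoters, and 29 of 42 were above 0, against 66.6% of all promoters. The count of 6 depends on the scale: it was 1 higher and 1 lower both after quantile normalization and after subtracting the median fold of all promoters, and with 2 times the pseudocount none passed in either direction. Over all promoters the shares were 1.37% higher and 1.38% lower after quantile normalization.

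The 6 ATPase genes all had a log2 fold above 0, with a median of 0.77. Their summed coverage was 7.73 in 4HT and 4.44 in EtOH, a ratio of 1.74 (1.02 to 2.95). The 48-gene list, of which 46 had a region, had sums of 54.9 and 40.6, a ratio of 1.35 (1.13 to 1.61), against 1.21 (1.2 to 1.23) for all promoters. The 7 alpha genes had a ratio of 1.48 (1.0 to 2.26), the 7 constitutive beta genes 1.16 (0.698 to 1.91) and the 11 non-ATPase genes 1.23 (0.904 to 1.68). Each of these intervals, that of the whole list included, contains the 1.21 of all promoters.

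At single members the pile-ups were low and the intervals wide. Psmc4 had 0.290 in EtOH and 0.938 in 4HT, the largest difference (log2 fold 1.21, ratio 3.23, 0.516 to 33.1). Psmg4 had 0.539 and 1.39 (ratio 2.58, 0.671 to 17.6). Psmc6 had 0.622 and 1.56 (ratio 2.51, 0.675 to 11.4), and Psma2 a ratio of 2.36 (0.875 to 8.18). The deepest member, Psmd1, had a ratio of 1.74 (0.958 to 3.13). On the lower side, Psme1, a subunit gene of an interferon-induced activator, had 0.539 in EtOH and 0.207 in 4HT (log2 fold -0.86). Psmd5 had 0.616 and 0.311 (-0.68), Psmb2 1.29 and 1.02 (-0.29) and Psmd12, a lid gene, 1.47 and 1.18 (-0.27). The counting interval of the ratio included 1 at every one of the 42 members, and it excluded 1 on the higher side at 0.171% of all promoters.

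For H2BK120ac, TD was set against ED and TT against ET, groups that differ in the first letter of the code. These 2 comparisons share no column. The pseudocount was 0.4, and 37 of 46 members had a mean of at least 0.4. Psmb5, Psmb8, Psmc3, Psmd6, Psmd8, Psmd9, Psmd10, Psme1 and Psmg3 did not. In TD against ED, 12 of 37 members were at least 2-fold higher and 1 was lower, against 24.1% and 3.59% of all 8430 promoters that passed. The median log2 fold was 0.45, against 0.32 over all promoters, and over the 34 members covered in both groups it was 0.42, against 0.29 over all promoters covered in both. In TT against ET, 12 of 37 were at least 2-fold higher and none lower, against 22.8% and 3.31%. The median was 0.66, against 0.33, and over the 29 members covered in both groups it was 0.39, against 0.30. Of the 12 in TT against ET, Psma5, Psma7, Psmb1, Psmb3, Psmb4, Psmd4, Psmd13 and Psme2 had no coverage in ET. Psmd4 and Psme2 passed with 0.415 in TT, a pile-up of 1. With no filter, 14 of 46 members were higher and 2 lower in TD against ED (20.1% and 9.19% of all promoters). For TT against ET these were 13 and 2 (19.8% and 8.32%). With the median fold of all promoters subtracted, the counts were 5 higher and 1 lower in TD against ED, where all promoters had 15.0% and 6.86%. In TT against ET they were 6 and 1, where all promoters had 13.5% and 6.60%.

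Summed over the members, TD against ED had a ratio of 1.92 (1.39 to 2.73), and TT against ET 1.81 (1.28 to 2.58). Over all promoters the ratios were 1.66 (1.62 to 1.69) and 1.60 (1.57 to 1.64), inside the members' intervals. Higher by at least 2-fold in both comparisons were Psma2, Psma5, Psma7 and Psmd11, which is 33.3% of each set of 12. Over all promoters 1077 were higher in both, which is 53.1% of the 2029 in TD against ED and 55.9% of the 1925 in TT against ET. The 2-fold count of 12 in TD against ED was 6 of 28 when the members that share a region were left out, since Psma2, Psma4, Psma7, Psmb9, Psmc2 and Psmc5 were among the 12. For TT against ET it was 8 of 28.

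The counts by role stand beside 24.1% of all promoters at least 2-fold higher in TD against ED and 22.8% for TT against ET. The 7 alpha genes had 5 at least 2-fold higher in TD against ED (Psma2, Psma3, Psma4, Psma5 and Psma7), with a median log2 fold of 1.18. Their summed ratio was 2.92 (1.38 to 7.95). In TT against ET the same 7 genes had 3 higher, a median of 0.39 and a ratio of 1.97 (0.881 to 4.65). The constitutive beta genes had 2 of 6 kept genes higher in TD against ED (Psmb2 and Psmb7) and 3 of 6 in TT against ET (Psmb1, Psmb3 and Psmb4), with ratios over all 7 of 2.45 (0.917 to 7.70) and 3.47 (1.11 to 14.5). All 5 of these had no coverage in the lower group, ED or ET. The ATPase genes had 2 of 5 higher in each comparison (Psmc2 and Psmc5, then Psmc1 and Psmc6), with ratios of 2.32 (0.885 to 6.41) and 2.35 (0.854 to 7.32). The non-ATPase genes had 1 of 9 higher in TD against ED (Psmd11) and 3 of 9 in TT against ET (Psmd4, Psmd11 and Psmd13), with ratios of 1.77 (0.916 to 3.41) and 1.96 (0.964 to 4.08). Each of these 8 intervals includes the ratio of all promoters. No kept gene of these roles was 2-fold lower in either comparison, against 3.59% and 3.31% of all promoters. The smaller roles had wide intervals. In the same order, the activators had ratios of 2.49 and 1.38, the immunoproteasome genes 1.27 and 1.84, and the inhibitor gene 1.04 and 1.46. Ratios were 0.687 and 1.13 for the 19S chaperones, 1.16 and 0.736 for the 20S chaperones, and 0 and 0.931 for Psma8.

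Among members covered in both groups, the largest TD against ED difference was that of Psme4 (3.15 against 0.458, ratio 6.88, 0.992 to 328). Psma2 (ratio 5.58, 0.992 to 328) and Psmd11 (5.37, 0.832 to 292) were next. Psmb2, with 1.27 in TD and no coverage in ED, had the largest value on the pseudocount scale (2.06), and no ratio is given for it. On the lower side, Psma8 had 1.31 in ED and no coverage in TD (-2.10 on the pseudocount scale). Psme2 had 0.821 in ED and 0.412 in TD (log2 fold -0.59), Psmd5 0.982 and 0.675 (-0.36) and Psma1 0.676 and 0.482 (-0.29). In TT against ET the largest pseudocount values belonged to Psmb1 (2.38), Psma5 (1.92), Psmd13 (1.84) and Psmb3 (1.82), none of which had coverage in ET. Their TT values were 1.69, 1.12, 1.03 and 1.01. Psmd11 had 2.55 in TT against 0.625 in ET (ratio 4.07, 0.678 to 257). On the lower side stood Psmg4 (1.72 in ET, 0.766 in TT, log2 fold -0.86), Psme3 (0.929 and 0.547, -0.49), Psmd3 (0.721 and 0.415, -0.46) and Psmd14 (0.845 and 0.515, -0.44). No member had a counting interval that excluded 1 in either comparison. Among all promoters 3.26% had an interval above 1 in TD against ED. For TT against ET this share was 2.53%, and 0.0119% lay below 1.

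**Figure D3:**
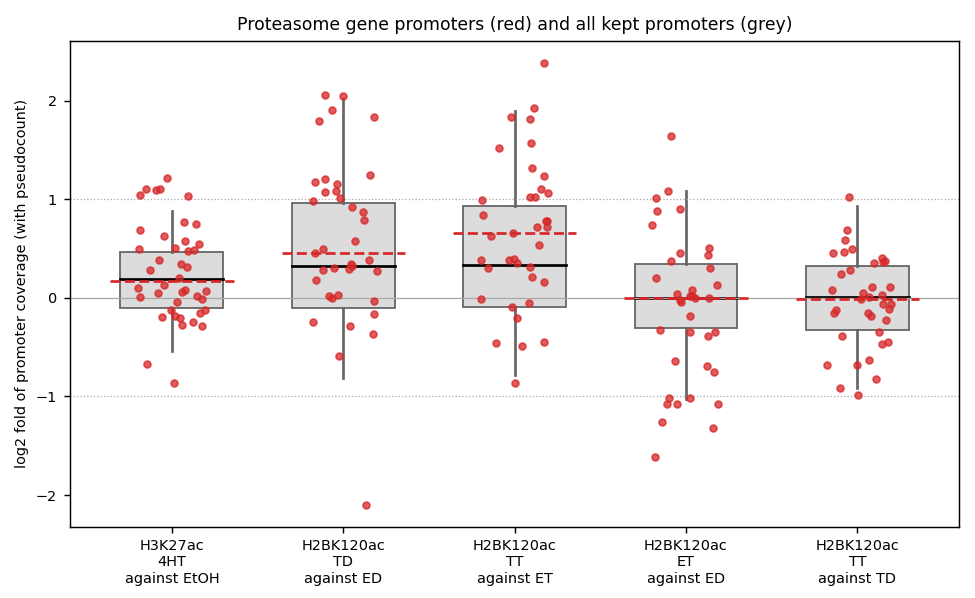
Log2 folds with pseudocount (y axis) of the kept members (red points, dashed line at their median) in the 5 comparisons (x axis), beside all kept promoters (box for the quartiles, black line for the median, whiskers from the 5th to the 95th percentile, dotted lines at 2-fold). The members' medians of 0.45 and 0.66 in TD against ED and TT against ET lie above 0, and those of ET against ED and TT against TD lie at 0.00 and -0.01.

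Groups that differ in the second letter were compared with the first held. In ET against ED, 3 of 37 members were at least 2-fold higher and 8 lower, against 5.69% and 5.29% of all promoters. With no filter, 6 of 46 were higher and 12 lower (8.93% and 9.44% of all promoters). The median log2 fold was 0.00, as over all promoters, and the summed ratio was 0.955 (0.646 to 1.44), against 1.01 (0.987 to 1.03). The 3 higher were Psmb7 (0 in ED, 0.850 in ET), Psmb2 (0 and 0.445) and Psma4 (0.418 and 1.25, log2 fold 1.01). Psme4 followed with 0.90. The lowest were Psme2 (0.821 in ED, -1.61 on the pseudocount scale), Psmb3 (0.597, -1.32) and Psmd13 (0.557, -1.26), all without coverage in ET. Psma7, Psmb4 and Psmd4 had 0.445 in ED, a pile-up of 1, and none in ET, which gives -1.08 for each. A pile-up of 1 against no coverage thus passes 2-fold here. Psma7, Psmb1, Psmb3, Psmb4, Psmd4, Psmd13 and Psme2, all lower here, were also among the members higher in TT against ET. Their missing ET coverage enters both counts.

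In TT against TD, 1 of 37 members was at least 2-fold higher and none lower, against 4.13% and 3.9% of all promoters. With no filter, 2 of 46 were higher and 3 lower (7.9% and 7.33% of all promoters). The median was -0.01, against 0.01, and the summed ratio 0.9 (0.682 to 1.19), against 0.977 (0.960 to 0.994). The member was Psma8, with 0.415 in TT, a pile-up of 1, and none in TD. Psmc4 had 0.412 in TD and 0.908 in TT (log2 fold 0.69), Psmc6 0.793 and 1.39 (0.59) and Psmb1 1.08 and 1.69 (0.50). On the lower side were Psmc2 (2.49 in TD, 1.06 in TT, -0.99), Psmd14 (1.32 and 0.515, -0.91), Psmb4 (1.27 and 0.542, -0.83), and Psmb2 and Psma7 (both -0.68). No member's counting interval excluded 1 in ET against ED or in TT against TD. Over all promoters none did in the first, and 0.0119% lay above and 0.0356% below 1 in the other.

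Members with more H3K27ac also tended to have more H2BK120ac in TD and TT. Across the 46 members, mean H3K27ac over EtOH and 4HT and mean H2BK120ac over TD and TT had a Spearman rho of 0.61. The Pearson r, taken on log2 of these means with 0.2 added, was 0.69. Over all 14221 promoters rho was 0.72 and r was 0.70. With ED and ET in place of TD and TT, rho was 0.51 for the members and 0.57 for all promoters. These are descriptions across genes, which are not independent replicates, and the points share libraries and region widths. Width itself had a rho of 0.35 with H3K27ac in the members. Psma8 and Psmb5 had H3K27ac of 1.03 and 0.898 in EtOH with mean TD and TT H2BK120ac of 0.207 and 0.206. Psmb4 had the reverse, 0.315 and 0.906.

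**Figure D4:**
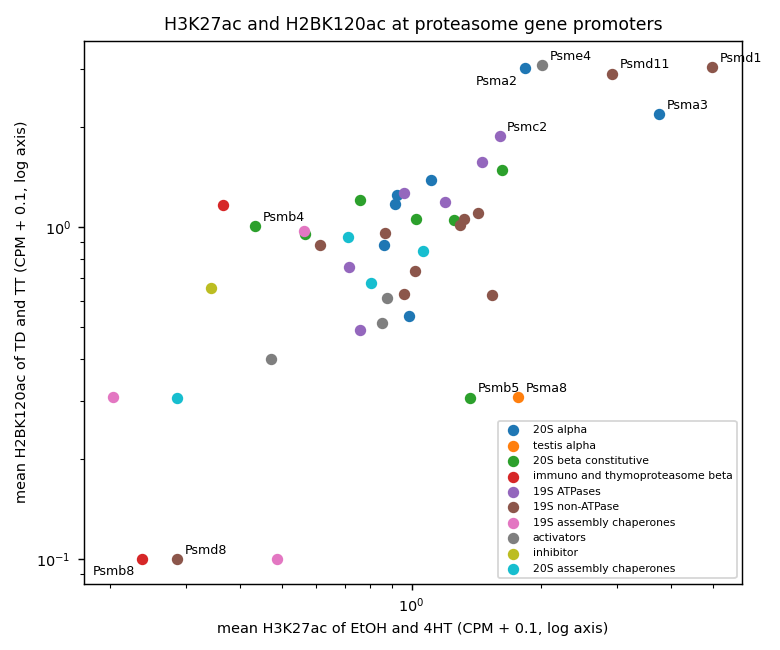
Mean H3K27ac over EtOH and 4HT (x axis, CPM with a small offset, log scale) against mean H2BK120ac over TD and TT (y axis, same scale) for the 46 members, coloured by role. Psmd1, Psmd11, Psma2, Psme4 and Psma3 are high in both, Psma8 and Psmb5 lie low for their H3K27ac, and Psmb8 and Psmd8 are at the lower left with no TD or TT coverage, as is Psmd10 farther right.

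Other genes of the ubiquitin-proteasome pathway were read in the same way. The list held 35 symbols for ubiquitin, its activating enzymes, shuttle factors, receptors and assembly and transcription factors of the proteasome. Of these, 34 were matched and 33 had a promoter region. In H3K27ac, 2 of 33 were at least 2-fold higher in 4HT and none lower, with a median of 0.34, against 2.91%, 0.81% and a median of 0.19 over all promoters. Among them was Ubqln2, a shuttle factor gene (0.122 in EtOH, 0.558 in 4HT, log2 fold 1.23). In TD against ED, 15 of 30 kept genes were at least 2-fold higher and 1 lower, with a median of 0.94 and a summed ratio of 2.96 (2.07 to 4.28). All promoters had 24.1% higher, 3.59% lower and a median of 0.32. In TT against ET, 12 of 30 were higher and none lower, with a ratio of 2.56 (1.80 to 3.67), beside 22.8% higher and 3.31% lower of all promoters. Both intervals lie above the ratios of all promoters, 1.66 and 1.60. Rad23b, a shuttle factor gene, had 0.595, 1.01, 7.05 and 5.40 in ED, ET, TD and TT. Nfe2l2, which encodes the stress factor NRF2, had 0.915, 1.33, 4.87 and 4.80. Nfe2l1, which encodes the factor known to induce proteasome genes when the proteasome is inhibited, had 0.440, 0.223, 0.617 and 0.885. Pomp, the gene of the proteasome maturation protein, had no coverage in ED or ET, 0.412 in TD and 1.52 in TT. The lower gene in TD against ED was Uba6, a ubiquitin-activating enzyme gene, with 0.649 in ED and no coverage in TD. In ET against ED, 2 of 30 genes were higher and 1 lower, against 5.69% and 5.29% of all promoters. In TT against TD, 2 were higher and 3 lower, against 4.13% and 3.9%. The difference between this list and the proteasome genes was not tested.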

How the data were processed

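CUT&Tag libraries of H3K27ac and H2BK120ac were read from the tables that the authors deposited, which hold coverage signal, named as CPM in the tables' own names, in 127646 regions with 1 merged column per group. Per the submitters' processing notes the build was mm10. The notes also list featureCounts and DESeq2 for H3K27ac but not what they did. No aligner is named: not given in the sources used here. IgG columns, 16 in number, could not be matched to a sample and stayed out. Start sites came from the RefSeq promoter table for 17492 genes (40 members). For 3661 (8 members) they came from the end of the RefSeq span nearest to a deposited window around a start site. Where RefSeq lists several start sites, a region near any of them counted.

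Regions of a gene were averaged, with a missing value as 0. Folds were log2((value + pseudocount) / (value + pseudocount)), with a pseudocount (0.2 and 0.4) equal to the rounded 25th percentile of all values above 0. Promoters were kept where the mean over a table's groups reached it. With merged replicates no test was possible, so a size of 2-fold and counting intervals took the place of the planned tests. The steps were tested on simulated data. Python 3.11.15, pandas 2.3.3, numpy 2.4.6, scipy 1.17.1 and matplotlib 3.10.9 were used. The text names, per mark, the 8 members of highest mean, and per comparison the 4 largest log2 folds each way, besides members without a region or without coverage in a whole mark. Other members were named after their values were seen. The members, lists and rules were chosen with earlier results of these data known. Alternatives were other pseudocounts, no filter, a mean pile-up of at least 5, quantile normalization, subtraction of the median fold, a window of 500 bp, the region of highest mean, and leaving out shared promoters. Values of 1 gene of the pathway list are not reported here.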

Additional observations from a re-analysis of the deposited data

How the results depend on the processing

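No paired analysis was possible because the replicates were merged into 1 column per group, and no replicate could be left out. In 4HT against EtOH, the median H3K27ac log2 fold of the members was 0.17. It was 0.50 over the 17 members with a pile-up of at least 5, where all promoters had 0.32, and -0.025 with the median of all promoters (0.19) subtracted. The count of 6 members at least 2-fold higher was 0 with 2 times the pseudocount (1.01% of all promoters), 1 after quantile normalization (1.37%) and 1 with the median subtracted (1.18%). It was 6 with 0.5 times the pseudocount (5.06%), 7 with the region of highest mean (3.60%) and 4 of 17 at a mean pile-up of at least 5 (3.13%). Without shared promoters it was 4 of 32, beside 2.91% of all promoters with shared ones kept. In TD against ED the count of 12 was 15 with 0.5 times the pseudocount (29.4% of all promoters) and 5 with 2 times (14.4%). With the median subtracted it was 5 (15.0%). It was 6 of 28 without shared promoters, beside 24.1% of all promoters with shared ones kept. At a mean pile-up of at least 5 it was 0, where Psmd1 was the only member left and the median of 319 promoters was 2.19. In TT against ET the count of 12 was 14 with 0.5 times the pseudocount (28.3% of all promoters) and 6 with 2 times (13.1%). With the median subtracted it was 6 (13.5%). It was 0 at a mean pile-up of at least 5, again with Psmd1 alone (median of the 319 promoters 1.99). Taken singly, a pile-up of 5 was reached by 952 (TD) and 819 (TT) promoters, but only by 15 (ED) and 40 (ET). The pile-up filter thus favours promoters high in a T-first group. How far this selection adds to both medians was not tested. The filter cannot show how Psmd1 compares with promoters in general. The ET against ED median of 0.00 was -0.030 after quantile normalization, -0.0085 without shared promoters and -0.38 for Psmd1 alone. The TT against TD median of -0.01 was 0.064 without shared promoters. A larger pseudocount shrinks every fold by construction, and the other causes were not tested. For single named genes, 153 of 315 values under an alternative equalled the main one. No filter, a pile-up of at least 5 and leaving out shared promoters only choose genes and cannot change a gene's fold. The 500 bp window and the region of highest mean cannot change it at a gene with 1 region. Equal values there were fixed by construction and say nothing of stability. Of the 162 that differ, 138 kept their side of 2-fold, 16 no longer passed, 8 newly passed and none past 2-fold changed sign. Limits are the merged replicates and the low depth, with no member at a pile-up of 5 in ED or ET.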

Other observations

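The nearest region to Psmb10, the gene of an inducible core subunit, had its centre 1307.5 bp from the TSS, at chr8:105936716-105937453. Its H3K27ac was 0.238 in EtOH and 0 in 4HT, and its H2BK120ac was 0.445, 0.445, 0.412 and 0.439 in ED, ET, TD and TT. The nearest region to Psmb11, the thymic core subunit gene, lay 6736 bp away at chr14:54631930-54632162, with H3K27ac of 0.200 and 0.261 and H2BK120ac of 0.445, 0, 0.412 and 0 in the same order. All of these values are pile-ups below 2.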
